A study of Mus musculus with 3 samples.

Results

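Non-cycling leukemia cells of the pro-B type were studied in peripheral blood (PB) of mice carrying BBC2 cells, a line of stem cell leukemia and lymphoma syndrome (SCLL). The members are droplet barcodes chosen by their own transcripts: those in which 200 or more genes were seen and mitochondrial counts did not pass 10%, and which held at least 3 counts in all of Vpreb1, Igll1, Dntt and Rag1, at most 1 of Mki67 plus Top2a, and at most 1 of F13a1 plus Cd3e. A count is 1 unique molecular identifier (UMI), that is 1 captured transcript. The rule found 198 members among the 8981 D11 and D14 barcodes that passed the first filter, of 12792 in all 3 libraries, with 13 of them in the library of day 11 (D11) and 185 in that of day 14 (D14), and 23259 barcodes were deposited in all. In the naive library 1 barcode passed the same rule, with 4 UMIs of Rag1 and none of Vpreb1, Igll1 or Dntt.

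BCR-FGFR1, a fusion kinase, is the 1 driver of BBC2. A vector brought it into stem cells, whose primary leukemia gave this 1 line, and the line also carries GFP. Per the study's methods, it was engrafted into young female Balb/C mice, and the labels give all 3 libraries the genotype WT, which is that of the host. PB was taken from naive mice, from leukemic mice at D11 and from leukemic mice at D14, red cells were lysed, dead cells were removed, and 10x Genomics 3′ v3 libraries were made, 1 for each condition. The number of mice in a library is not given in the sources used here. The libraries held 30362408 UMIs over 5386 barcodes (naive), 57640396 over 8536 (D11) and 65861863 over 9337 (D14), of which 3811, 4567 and 4414 barcodes passed the filter. With 1 library for each condition there is no replicate and no test, so that a difference between days cannot be told apart from a difference between libraries. An exact 95% interval, for counting error only, stands in brackets beside a value. Mature B cells of the naive library served as the reference and were chosen by at least 3 UMIs of Cd79a, Cd79b and Ms4a1 and at least 1 of Ighd, with fewer than 3 UMIs of the 4 choosing genes. There were 341 such barcodes with 2367694 UMIs.

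A developing B cell rearranges its heavy chain genes first, with the RAG recombinase cutting the DNA and terminal transferase, the product of Dntt, adding bases at the joints. The new heavy chain is then tried out in a pre-B cell receptor, where the surrogate light chain made of VpreB and lambda5 (Igll1) stands in for a light chain. Cells that pass rearrange a light chain, switch off the surrogate chain, leave the marrow, and come to carry IgM and IgD, MHC class II and the receptors of a mature B cell. Leukemia of the pro-B type is held before that point, and BCR-FGFR1 signals without ligand through the kinase of FGFR1.

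The 2 groups of members differed in depth, and this bears on every result at D11. The 13 D11 members held 61595 UMIs, with a median of 3771 per barcode and a range of 874 to 10323. The 185 D14 members held 4207008 UMIs, with a median of 23648 and a range of 548 to 63097. A gene with no UMI may therefore lie anywhere up to 48.7 counts per 1000000 (CPM) at D11, up to 0.713 CPM at D14 and up to 1.27 CPM in naive mature B barcodes, which is the level of 3 UMIs. The D11 values are thus given as a thin description, and the D14 values carry the account. No barcode sequence of a member occurred in a second library, although 12, 14 and 18 sequences were shared between pairs of libraries.

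**Figure D1:**
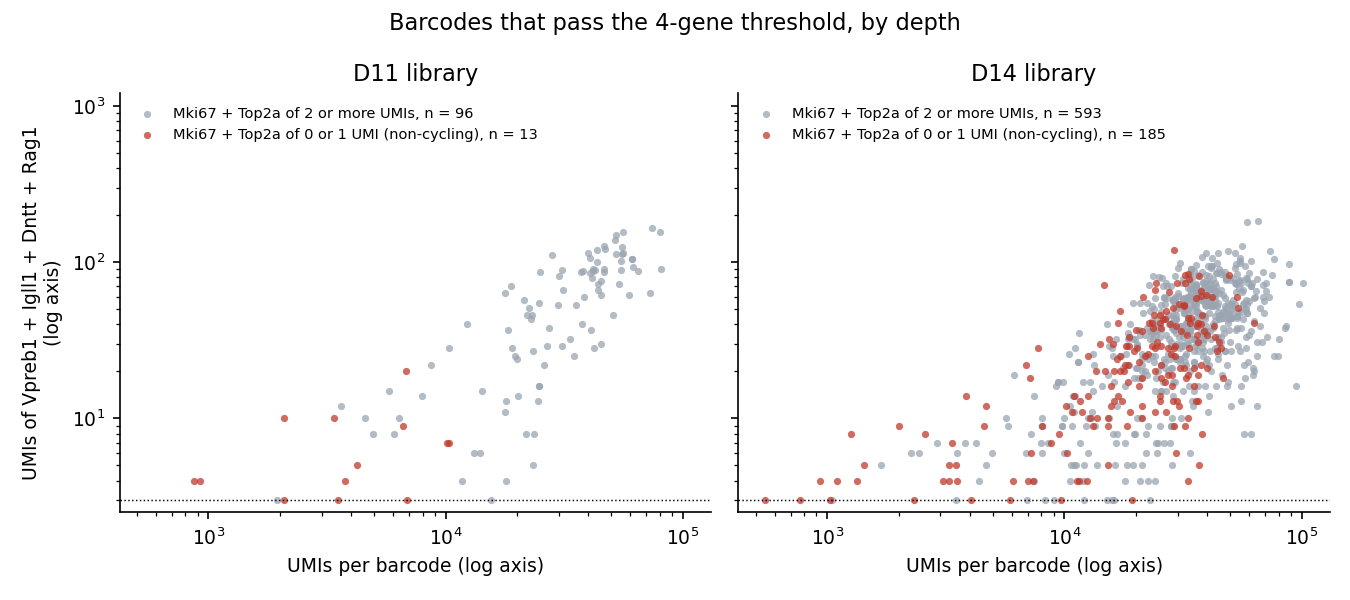
Each point is a barcode of the D11 (left) or D14 (right) library that reached 3 UMIs of the 4 choosing genes (dotted line), with its UMIs on the horizontal axis and the summed UMIs of those genes on the vertical axis, both on log axes. The 13 red D11 points lie among the shallow barcodes (median 3771 UMIs), whereas the 185 red D14 points spread over the depths of the grey cycling barcodes (median 23648 against 34488 UMIs).

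Members made up 0.285% [0.152 to 0.486] of the barcodes that passed the filter at D11 and 4.19% [3.62 to 4.82] at D14. Barcodes that met the same rule but held 2 or more UMIs of Mki67 plus Top2a, called cycling here, numbered 96 at D11 and 593 at D14. Non-cycling barcodes were thus 11.9% [6.51 to 19.5] of the leukemia barcodes at D11 and 23.8% [20.8 to 26.9] at D14. That share moved with depth in both libraries. Among leukemia barcodes with at least 10000 UMIs it was 2.25% [0.273 to 7.88] at D11 (2 of 89) and 21.4% [18.4 to 24.6] at D14 (152 of 710), and below that depth it was 55.0% (11 of 20) and 48.5% (33 of 68). With each deep barcode thinned to 10000 UMIs, 11.2% [5.52 to 19.7] at D11 and 34.9% [31.4 to 38.6] at D14 had at most 1 UMI of the pair, and whether the days differ cannot be said from 1 library each. Of the 13 D11 members, 11 lay below 10000 UMIs. Other genes of mitosis were present in the D11 members. The 26 listed ones summed to 1575 CPM (97 UMIs) in D11 members, 2361 CPM in D11 cycling barcodes and 104 CPM in naive mature B. All 11 with at least 50 CPM in either group were at least 2-fold higher than in naive mature B, as were 30.9% of all genes compared. None of the 26 reached 50 CPM in naive mature B, where Cenpa was highest at 47.3 CPM. The filter thus took them through D11 and largely set this count. In D14 members the 26 genes summed to 256 CPM, against 2393 CPM in D14 cycling barcodes. The D11 members are thus called non-cycling by Mki67 and Top2a only. Their mitosis level depended on the rule, as the median log2 ratio of the list to naive mature B was 5.06 with the full rule and 1.504 with Dntt left out of it.

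The choosing genes were described and not tested, since they define the members. Vpreb1 was found in 184 of the 185 D14 members, Igll1 in 166, Dntt in 59 and Rag1 in 1, and the median sum was 21 UMIs with a range of 3 to 119. At D11, Vpreb1 was found in 11 of 13 members, Igll1 in 9, Dntt in 8 and Rag1 in 2, with a median sum of 5 UMIs. The label therefore rested on the surrogate light chain genes at D14, whereas Rag1, which encodes a subunit of the recombinase, was nearly absent there, at 1 UMI in all. Its partner Rag2 had 4 UMIs at D14 and 1 at D11. Next to the threshold, the 8 D14 barcodes with 3 UMIs of the choosing genes held Cd79a in 6, Cdkn2a in 4 and Socs2 in 3, and the 32 left out with 2 UMIs held them in 10, 14 and 8. The barcodes just inside and just outside were of like depth, with medians of 3172.5 and 3883 UMIs.

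Leukemia transcripts were also found in barcodes that should lack them, which sets a background. Vpreb1 was found in 6.28% [5.05 to 7.71] of 1353 D14 neutrophil barcodes (at least 10 UMIs of S100a8 plus S100a9; median 4730 UMIs), which should lack it, and in 0.624% of 1764 at D11. Socs2, which did not choose the members, was found in 89.7% of D14 members against 2.96% of neutrophil barcodes, or 26.9% against 0.462% after thinning to 1000 UMIs, which left out 3 and 55 shallower barcodes. Any of Socs2, Cdkn2a and Enpep was present in 181 of the 185 D14 members and in 11 of the 13 at D11. The naive library held 1 cycling barcode, of 49639 UMIs, with 79 UMIs of the choosing genes, 15 of Socs2 and 14 of Enpep.

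Against naive mature B barcodes, 1166 of 4495 genes with at least 50 CPM in either group (25.9%) were at least 2-fold higher in D14 members, and 755 (16.8%) were at least 2-fold lower. At D11, 1393 of 4507 genes (30.9%) were higher and 1099 (24.4%) lower. These shares, computed with 1 CPM added, are the background for each list below. A gene high in only 1 group passes the 50 CPM filter through that group, so that counts over a list are in part set by the filter. Since members were picked by transcripts of the same barcodes, the counts describe them and test nothing, and the medians of all genes were near 0, at 0.13 (D14) and 0.14 (D11) on the log2 scale.

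Genes of the pro-B and pre-B stage summed to 6023 CPM at D11 and 7663 CPM at D14, against 1379 CPM in naive mature B. Of 30 listed genes, 17 reached 50 CPM in D14 members or naive mature B. Of these, 16 were higher in members and none lower, with Cecr2 between. The count leaves out listed genes below that level in both groups, such as Kit, Cd34 and Flt3, so that the filter in part set it. The median log2 ratio over the 24 members of the list with at least 5 CPM was 2.24, and at D11 the count was again 16 of 17, with a median of 2.29.

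Vpreb1, Igll1 and Vpreb2 had no UMI in the reference, whereas Vpreb3 was present there. Vpreb1 (chr16:16868403-16870843, minus strand) had 0 CPM in naive mature B, 714 CPM at D11 and 816 CPM at D14, both sides being set by the choice of members and reference. Igll1, its partner chain and its neighbour on chromosome 16, had 0, 276 and 283 CPM. Vpreb2, a near copy of Vpreb1, had 0, 146 and 120 CPM and was found in 123 D14 members. However, 50.5% of the 31-base words of its transcript also occur in Vpreb1, and reads from such stretches do not tell these 2 genes apart. Vpreb3, which shares no such word with Vpreb1 and is also made in mature B cells, had 236, 1088 and 2062 CPM, a log2 ratio of 3.13 [3.01 to 3.26] at D14. Across D14 members Vpreb3 was even, with the 18 barcodes that had most of it holding 23.7% of its UMIs. Dntt was the uneven one, at 0, 390 and 54.9 CPM, since 18 barcodes held 68.0% of its D14 UMIs.

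Surface proteins and regulators of early B cells were also above the reference. Enpep (BP-1, an aminopeptidase of the pre-B cell surface) had 0 CPM in naive mature B, 227 CPM at D11 and 399 CPM at D14. Il7r, the receptor for the growth factor of early B cells, had 35.5, 195 and 308 CPM, a log2 ratio of 3.12 [2.80 to 3.45] at D14. Cd24a, a surface glycoprotein that is high on immature B cells, had 158, 633 and 735 CPM. Among transcription factors of progenitors, Erg had 0, 114 and 169 CPM, Sox4 had 16.9, 244 and 285 CPM, and Myb had 20.3, 503 and 296 CPM. Not all genes of the stage list went this way. Of the same list, Kit, Cd34, Gata2 and Hlf had 0 UMIs in both groups of members, and Flt3 had 3.80 CPM at D14 against 8.87 CPM in naive mature B.

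**Figure D2:**
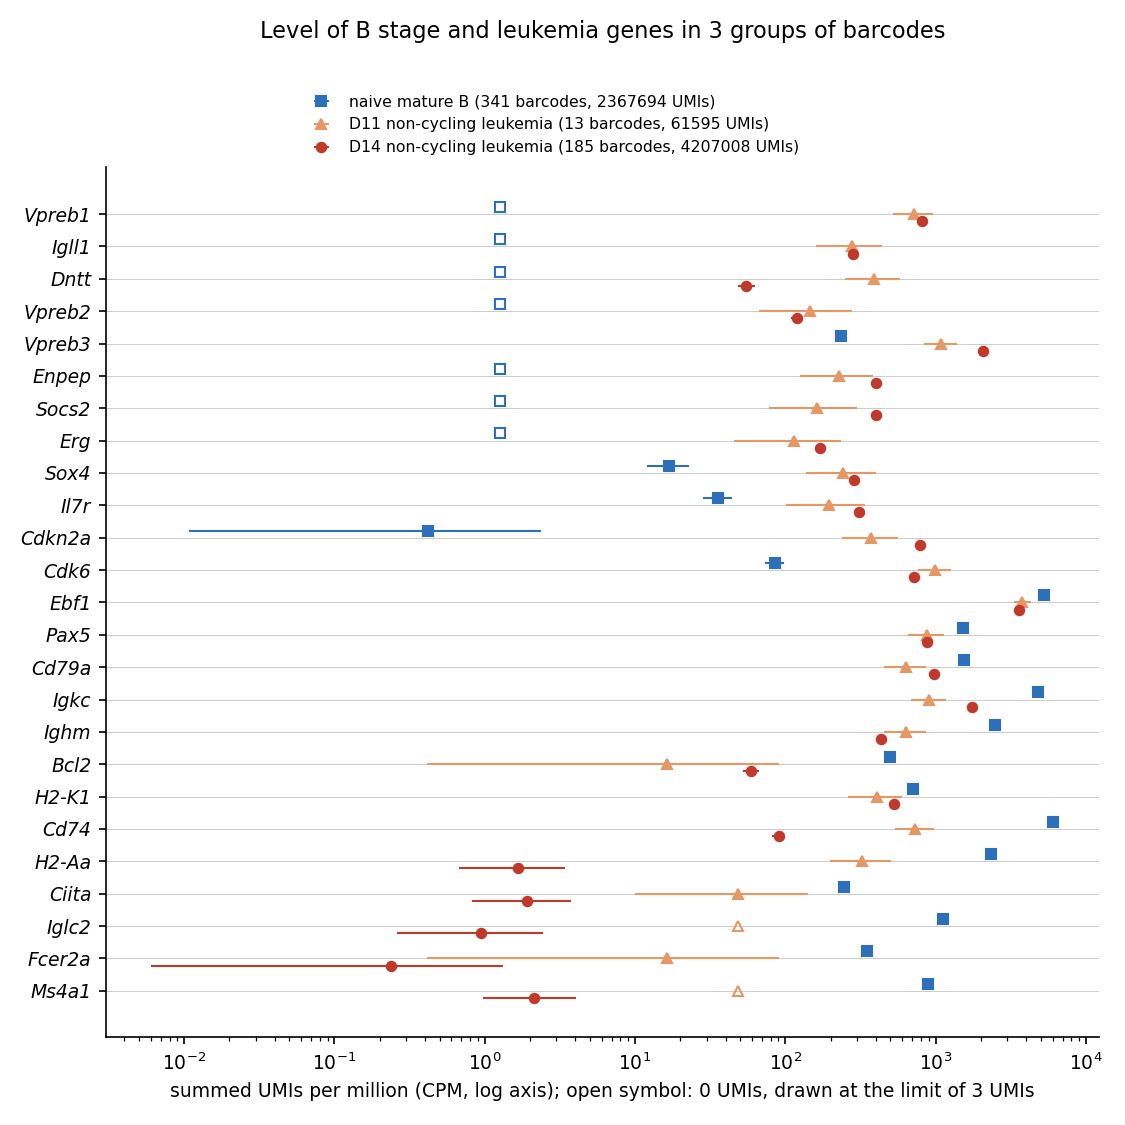
Level of each gene in summed UMIs scaled to CPM (log axis) in naive mature B barcodes (blue squares), D11 members (orange triangles) and D14 members (red circles), with exact 95% Poisson intervals, and with open symbols at the limit of 3 UMIs where none was counted. The choosing genes Vpreb1 and Igll1 lie above 250 CPM in both groups of members, Ebf1 and Pax5 lie close together in all 3 groups, and H2-Aa, Ciita, Iglc2, Fcer2a and Ms4a1 lie at 2.14 CPM or less at D14.

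The rule that ranked all genes gave, besides the stage genes, a further set with almost no transcript in mature B cells. Cdkn2a, which encodes the cell cycle inhibitor p16 and the p53 activator p19Arf, led at D14. Its level was 0.422 CPM in naive mature B (1 UMI), 373 CPM at D11 and 792 CPM at D14, and it was found in 173 of the 185 D14 members. The log2 ratio of Cdkn2a at D14 was 10.87 [8.39 to 16.18], and its level in cycling barcodes was alike, at 439 and 726 CPM. Cdkn2b, the neighbour that encodes p15, had 1.27 CPM in naive mature B, 0 UMIs at D11 and 37.6 CPM at D14. The transcript Gm12610, on the other strand of the same stretch of chromosome 4, had 0, 32.5 and 109 CPM.

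Socs2, an inhibitor of cytokine signals that STAT5 induces, had 0 CPM in naive mature B, 162 CPM at D11 and 399 CPM at D14, at least 315-fold higher at D14. Myl10, a myosin light chain of lymphocyte precursors, had 0, 617 and 459 CPM. Tcrg-C2, a constant gene of the T cell receptor gamma chain, had 0.422, 487 and 340 CPM. Other genes in the leading 15 were Adgrl2 and Adgrg3 (adhesion receptors), Ank3 (ankyrin G), Gfra2 (a coreceptor for neurturin) and Epb41l4b, with the unnamed transcripts Gm32122 and Gm41335. Gfra2 and Ank3, for example, had 171 and 458 CPM at D14 against 0.422 and 1.69 CPM in naive mature B. Of the leading 15 at D11 and at D14, 8 were common to both (53.3% of each), and the comparisons share the naive reference.

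The immunoglobulin loci were transcribed in the members. Ighm, the constant gene of IgM, had 2499 CPM in naive mature B, 633 CPM at D11 and 435 CPM at D14, a log2 ratio of -2.52 [-2.60 to -2.45] at D14. Igkc, the kappa constant gene, had 4772, 909 and 1738 CPM and was found in 173 of 185 D14 members, although a rearranged light chain is not a feature of the pro-B stage. The lambda constant genes were far lower, with Iglc2 at 1124 CPM in naive mature B, 0 UMIs at D11 and 0.951 CPM at D14. Ighg2b went the other way, at 4.65, 16.2 (1 UMI) and 140 CPM, and was found in 115 D14 members. Of the 6 constant genes with 50 CPM, 1 was higher and 5 lower at D14. Transcripts that start before rearrangement and those of a rearranged gene are not told apart by 3′ counts.

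Variable segments were unevenly used in the leukemia. At D14, 49 of the 121 Igkv UMIs in members (40.5% [31.7 to 49.8]) came from Igkv3-5, in 41 barcodes. In cycling barcodes of the same library the share was 49.5% [44.7 to 54.4] (210 of 424), and in those of D11 it was 55.6% [38.1 to 72.1] (20 of 36). In naive mature B barcodes Igkv3-5 took 1 of 278 Igkv UMIs, and the leading segment there, Igkv1-117, took 7.91% [5.03 to 11.7]. For the heavy chain, Ighv1-77 took 10 of 34 Ighv UMIs of D14 members (29.4% [15.1 to 47.5]) and 53.1% [46.1 to 60.0] in D14 cycling barcodes, against 0 of 239 in naive mature B, which allows up to 1.26%. The D11 members held 3 Ighv UMIs and 1 Igkv UMI in all, too few to describe. A variable segment was seen in few barcodes of either kind, so that shares are over UMIs, and UMIs of 1 barcode are not independent.

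MHC class II had the lowest median of the lists compared at D14. These proteins show peptides to CD4 T cells, and B cells make them once mature, under the coactivator CIITA, which is held on the promoters by factors bound to conserved boxes, among them an X box bound by RFX and a Y box bound by NF-Y. The 4 promoter stretches below, 100 bases up to the transcript start in RefSeq's GRCm38.p6 and written 5′ to 3′ on the strand of the gene, show both letters searched in these genes. Capitals mark ATTGG or its reverse CCAAT, part of the Y box, and GCAAC or its reverse GTTGC, part of the X box.
H2-Aa, chr17:34287824-34287923 (minus): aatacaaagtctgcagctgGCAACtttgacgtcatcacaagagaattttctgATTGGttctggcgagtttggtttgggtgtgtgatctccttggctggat
H2-Eb1, chr17:34305767-34305866 (plus): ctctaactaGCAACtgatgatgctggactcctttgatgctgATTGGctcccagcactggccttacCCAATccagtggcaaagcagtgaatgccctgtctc
H2-Oa, chr17:34092279-34092378 (plus): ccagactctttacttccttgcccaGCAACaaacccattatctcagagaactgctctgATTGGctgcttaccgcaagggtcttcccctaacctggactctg
H2-Ob, chr17:34238805-34238904 (plus): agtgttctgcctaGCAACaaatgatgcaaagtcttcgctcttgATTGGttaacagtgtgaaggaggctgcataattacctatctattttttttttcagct
These 4 were shown because GCAAC comes first in them and ATTGG follows, the former at 81, 91, 76 and 87 bases before the start and the latter at 48, 59, 43 and 57. H2-Eb2, the other searched gene with both, has the opposite order, with ATTGG at 100 and GCAAC at 9 bases before its start. Of the 12 listed class II genes, 9 matched a promoter, with 10 starts in all, of which 7 held ATTGG, 6 held GCAAC and 5 held both on either strand. Over 32851 promoters of the same length the shares were 18.9%, 13.8% and 2.63%. A match of letters is a description and not a bound site.

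Of the 11 class II genes with 50 CPM, all 11 were at least 2-fold lower than in naive mature B at D14, and the same held at D11, with a median log2 ratio of -5.56 at D14. H2-Aa, the alpha chain of I-A, had 2340 CPM in naive mature B, 325 CPM at D11 and 1.66 CPM (7 UMIs) at D14, a log2 ratio of -10.46 [-11.77 to -9.41]. H2-Eb1, the beta chain of I-E, had 1560, 81.2 and 1.43 CPM, and Ciita had 246, 48.7 (3 UMIs) and 1.90 CPM. H2-Oa and H2-Ob, the chains of the modulator of peptide loading, had 2.14 and 18.3 CPM at D14 against 88.7 and 184 CPM. Cd74, the invariant chain that guides class II through the cell, had 6003, 731 and 90.3 CPM. The D14 members that carried Cd74 were few. It was found in 38 of 185 (20.5%) against 98.5% of naive mature B barcodes, and 11 barcodes with at least 10 UMIs held 81.6% of the 380. The D11 level rested on 1 barcode, which held all 45 Cd74 UMIs and also passed the Cd79a, Cd79b, Ms4a1 and Ighd thresholds of the mature B rule. Without it H2-Aa was at 19.4 CPM and Cd74 at 0 UMIs over 12 barcodes. Mature B barcodes of the D14 library itself held 1845 CPM of H2-Aa and 4187 CPM of Cd74.

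MHC class I did not share this. Of 13 genes, 1 was higher and 2 lower at D14, near or under the shares of all genes, with a median of 0.05. H2-K1 had 710, 406 and 530 CPM in naive mature B, D11 and D14, and B2m, the light chain of class I, had 732, 812 and 1130 CPM. Nlrc5, the class I relative of CIITA, was the gene above 2-fold, at 53.6, 211 and 175 CPM.

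Receptors and adhesion genes of mature B cells were low as a group. Of 28 mature stage genes, 24 were lower at D14 and none higher, with a median of -3.33, and all 28 were lower at D11. Fcer2a (CD23) had 349 CPM in naive mature B, 16.2 CPM (1 UMI) at D11 and 0.238 CPM (1 UMI) at D14, and Fcmr, the receptor for IgM, had 563, 48.7 (3 UMIs) and 0.713 CPM (3 UMIs). Bank1, a scaffold of the B cell receptor, had 3373, 520 and 73.9 CPM, but 31 of its 32 D11 UMIs lay in the barcode that held all of the Cd74. The 4 genes within 2-fold at D14 were Cd69, Tnfrsf13b, Ly6d and Fcgr2b. Ly6d, at 218 CPM in naive mature B, had 0 UMIs at D11 and 368 CPM at D14. Of 15 trafficking and adhesion genes, 11 were lower and 2 higher, the latter being Selplg and Itgb1. Among the lower ones were homing receptors, with Ccr7 at 213, 48.7 and 0.713 CPM and S1pr1, which guides exit into blood, at 182, 16.2 and 8.32 CPM. The genes ranked lowest at D14 by the rule over all genes, besides those named, included Rapgef4 and Rasgrp3 (exchange factors for small GTPases), Ly86 (MD-1) and Kynu. Rapgef4 had 827 CPM in naive mature B and 1.19 CPM at D14, and of the lowest 15 at D11 and at D14, 5 were common to both (33.3% of each), 1 of which, Ms4a1, was used to choose the reference.

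**Figure D3:**
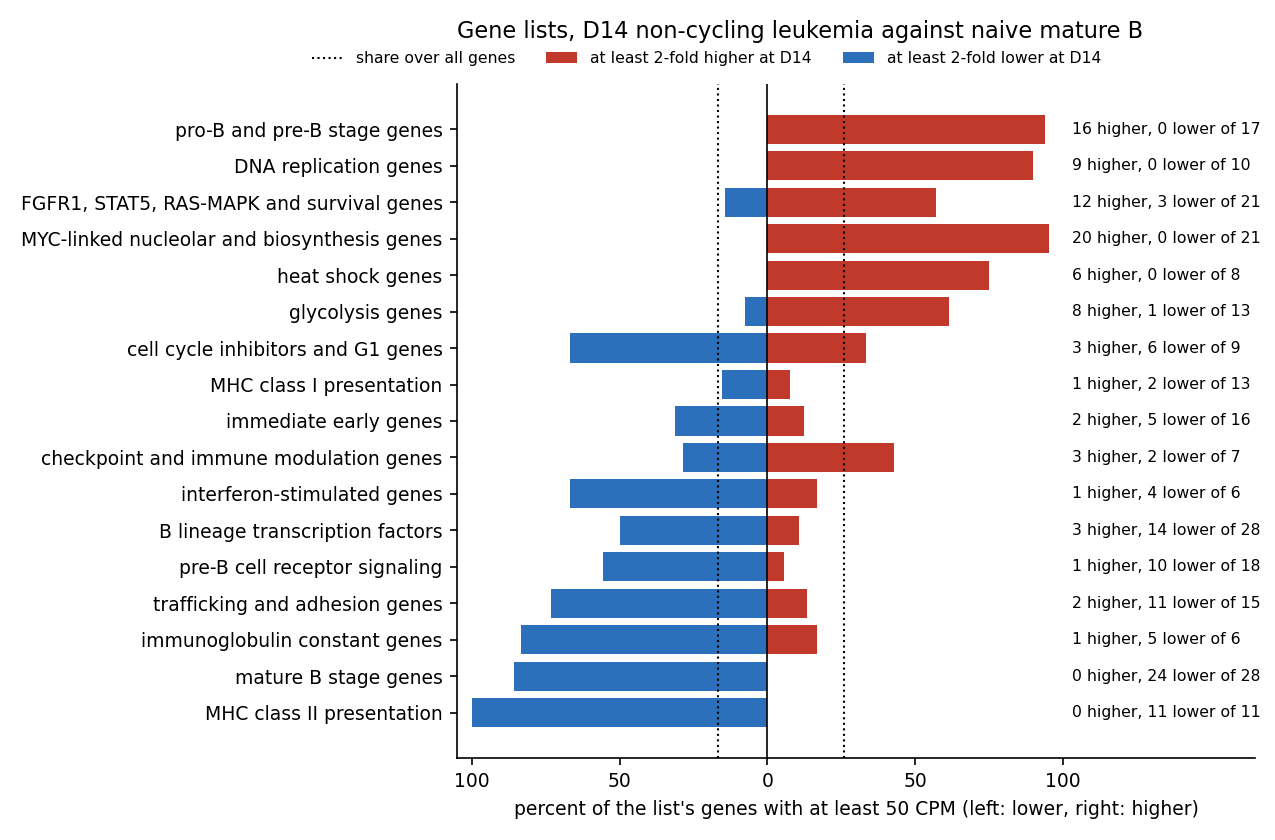
For each gene list, the percent of its genes with at least 50 CPM that were at least 2-fold higher (red, right) or lower (blue, left) in D14 members than in naive mature B, with the shares over all genes, 25.9% and 16.8%, as dotted lines. The lists of the pro-B stage, replication and biosynthesis have bars to the right of 90% or more, and MHC class II has all 11 genes to the left.

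Of the transcription factors of the B lineage, 11 of 28 lay within 2-fold of the mature level at D14. Ebf1 and Pax5, which start and hold the B cell program, had 3603 and 883 CPM at D14 against 5240 and 1510 CPM in naive mature B, within 2-fold. Of the 28, 14 were lower and 3 higher at D14, and 17 were lower and 1 higher at D11. The lower ones included Bach2 (3655, 860 and 633 CPM), Ikzf3 (1286, 260 and 279 CPM), Klf2 (697, 179 and 179 CPM) and Mef2c (2164, 244 and 509 CPM). Those higher at D14 were Tcf3 (E2A), Irf4 and Id2, an inhibitor of E proteins, which had 13.1 CPM in naive mature B, 16.2 CPM (1 UMI) at D11 and 104 CPM at D14.

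Signal carriers of the pre-B and B cell receptor were lower in 10 of 18 cases at D14 and in 12 of 18 at D11. Syk, the kinase that the receptor recruits, had 1646, 308 and 175 CPM, a log2 ratio of -3.23 [-3.35 to -3.12] at D14. The adaptor Blnk had 794, 373 and 188 CPM, and the kinase Lyn had 1468, 390 and 360 CPM. Fyn, another kinase of the same family, was the gene above 2-fold, at 93.3, 195 and 306 CPM.

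Genes linked to FGFR1, STAT5 and RAS signals and to survival leaned upwards at D14. Of 21 with 50 CPM at D14, 12 were higher and 3 lower, with a median of 2.01 over 36 genes. At D11, 10 of 19 were higher and 4 lower, with a median of 1.35. That D11 median turned to -0.20 without Vpreb1 in the rule and to -0.12 after thinning to 1000 UMIs. The partners of the chimera were both above the reference. Fgfr1 had 0 CPM in naive mature B, 32.5 CPM (2 UMIs) at D11 and 12.6 CPM (53 UMIs) at D14, and Bcr had 34.6, 292 and 217 CPM, but the counts do not tell transcripts of the vector from those of the mouse genes. Members of the list that STAT5 is known to induce did not share 1 direction, with Cish at 0, 16.2 (1 UMI) and 65.4 CPM and Pim1, a survival kinase, at 109, 227 and 456 CPM above mature B, and Bcl2, described next, below it. Among feedback inhibitors and targets of the MAPK pathway, Spred2 was at 15.6, 48.7 and 143 CPM, Dusp6 at 26.2, 81.2 and 89.4 CPM and Etv5 at 10.1, 97.4 and 70.1 CPM.

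The pair of BCL2 family genes showed opposite orders. Bcl2, which protects resting lymphocytes, had 496 CPM in naive mature B, 16.2 CPM (1 UMI) at D11 and 59.4 CPM at D14, a log2 ratio of -3.06 [-3.26 to -2.86]. Bcl2l1 (BCL-XL) had 8.02, 97.4 and 52.8 CPM, a log2 ratio of 2.72 [2.04 to 3.48]. Of the genes of G1, 3 of 9 were higher and 6 lower. The D cyclins differed, with Ccnd2 at 42.2, 179 and 706 CPM and Ccnd3 at 2227, 1071 and 881 CPM, and their kinases Cdk4 and Cdk6 were both above the reference, Cdk6 at 84.9, 990 and 716 CPM. Myc had 11.4, 81.2 (5 UMIs) and 109 CPM.

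Growth genes were higher although few Mki67 and Top2a transcripts were present by choice. Of 21 nucleolar and biosynthesis genes that MYC is known to drive, 20 were higher at D14 and none lower, and at D11 it was 19 of 20. Npm1 (nucleophosmin) had 403, 2484 and 1442 CPM, Ncl (nucleolin) 409, 1802 and 1214 CPM, and Ran, a GTPase of nuclear transport, 77.3, 1315 and 714 CPM. Glycolysis genes were higher in 8 of 13 cases and lower in 1, among them Pkm at 59.6, 276 and 382 CPM and the lactate transporter Slc16a1 at 11.4, 162 and 104 CPM. Heat shock genes were higher in 6 of 8 cases, such as Hspd1 at 68.8, 390 and 340 CPM, and replication genes in 9 of 10, such as Uhrf1, a partner of the maintenance DNA methyltransferase, at 0.845 (2 UMIs), 81.2 and 93.2 CPM. Further lists were the immediate early genes (2 higher and 5 lower of 16), the interferon-stimulated genes (1 and 4 of 6), the checkpoint genes (3 and 2 of 7), the oncogenes and progenitor genes linked to stem cell leukemia (1 and 1 of 2) and the lymphoid progenitor genes (1 and 2 of 4). Among the checkpoint genes, Lgals1 (galectin-1) had 15.2, 536 and 1474 CPM, a log2 ratio of 6.60 [6.13 to 7.11], while Cd86, a costimulator of T cells, had 130 CPM in naive mature B and 0 UMIs in both groups of members.

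Within the D14 library, few genes differed by 2-fold between members and cycling barcodes. Of 4123 genes, 40 (0.97%) were at least 2-fold higher and 121 (2.93%) at least 2-fold lower in members. All 20 mitosis genes with 50 CPM in either group were lower, with a median of -3.11. The 2 kinds of barcode were divided by Mki67 and Top2a, so that this gap is a description and no test. The filter also largely set the count, since no listed mitosis gene reached 50 CPM in members, where Ccnb2 was highest at 29.5 CPM. Of 19 replication genes, 9 were lower, with a median of -1.03, and Pcna, the sliding clamp, had 113 CPM in members and 210 CPM in cycling barcodes. No pro-B stage gene was above 2-fold and 1 of 19 below, with Vpreb1 at 816 and 792 CPM and Cdkn2a at 792 and 726 CPM, and none of the 21 biosynthesis genes was past 2-fold in either direction. Genes higher in members included 3 of 8 of the mature stage, 1 of 2 of class II and 3 of 22 transcription factors, among which Klf2 had 179 against 86.8 CPM, Pou2f2 188 against 85.5 CPM and Bcl11a 616 against 306 CPM. Genes of other cells leaned the same way, with 5 of 5 neutrophil genes and 4 of 6 erythroid genes higher, the latter summing to 11444 against 5373 CPM, and their part in these results was not tested.

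Neutrophil and hemoglobin UMIs in the members lay mostly in few barcodes, although S100a9 was found in 151 and S100a8 in 134 of the 185 at D14. All 5 neutrophil genes with 50 CPM at D14 were compared with naive mature B, and 3 were higher, with S100a9 the most abundant at 1018 CPM and none of the 14 listed at 0. Of the 7503 UMIs of S100a8 and S100a9, 92.5% lay in 6 of the 185 D14 members, and 1 of the 13 D11 members held 95.5% of the 178 there. Without those 6 barcodes S100a8 was at 56.4 CPM in place of 765 CPM, against 400 CPM in naive mature B. The D14 median of the neutrophil list turned from 2.12 to -0.53 with neutrophil-rich barcodes left out. All 6 erythroid genes with 50 CPM were higher, Hbb-bs leading at 5991 CPM, with hemoglobin at 1.11% of the UMIs of D14 members and 0.289% of those of naive mature B, and 15 barcodes held 96.5% of it. Mature B barcodes of the D14 library held more hemoglobin, at 2.40% of UMIs, and against them the erythroid median was -1.17. The summed level of the 12 T cell genes was 156 CPM at D14 and 170 CPM in naive mature B, led by Lat, with 4 at 0, and that of the 12 NK genes was 9.75 against 83.6 CPM, with 7 at 0. The 12 monocyte genes summed to 75.4 against 251 CPM, led by Lyz2. In mature B barcodes of the D14 library they summed to 67.3 CPM, and against these the median was 0.31. Plasma cell genes were higher in 3 of 4 cases, led by Mzb1 at 589 against 214 CPM, while Tnfrsf17, which defines that cell, had 0 UMIs and Sdc1 4.04 CPM. Platelet and myeloid progenitor genes summed to 13.3 and 9.03 CPM, and of 4 plasmacytoid dendritic genes 1 was higher and 1 lower. Of the D14 members, 32 also passed the Cd79a, Cd79b, Ms4a1 and Ighd thresholds of the mature B rule, and without them Vpreb3 was at 2083 CPM and Igkc at 1738 CPM. The part that other cells have in further results was not tested beyond these values.

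Between the days, 640 of 4420 genes (14.5%) were at least 2-fold higher in D14 than in D11 members and 569 (12.9%) lower, but 613 of the 640 and 410 of the 569 had fewer than 10 UMIs at D11. After thinning to 1000 UMIs the counts were 1414 higher and 1776 lower, so that the balance turned. The deep cycling barcodes come from the same 2 libraries, so that their values are set beside those of members and are not independent of them. Of the 640 higher genes, 482 (75.3%) were also higher in D14 cycling barcodes, against 54.6% of all 4420 genes. Past 2-fold there were 61 of the 640 and 117 of the 4420. Of the 569 lower genes, 314 (55.2%) were also lower, against 45.4% of all genes. Past 2-fold in that direction were 3 of the 569 and 7 of the 4420. Ly6d, Nav2, Emp3 and S100a4 led the ranking of genes higher at D14, and S100a6 stood at rank 12, an order that rests on the 1 CPM added, since the first 4 had no UMI at D11. Against the limit of 3 UMIs they were at least 7.56-, 5.34-, 5.23- and 4.32-fold higher. S100a6 (calcyclin) had 81.2 CPM (5 UMIs) at D11 and 2870 CPM at D14 in members, a log2 ratio of 5.14 [3.92 to 6.77], and 8.61 and 1067 CPM in cycling barcodes. Of its 5 D11 UMIs, 4 lay in the barcode rich in neutrophil transcripts, and without that barcode S100a6 was at 17.2 CPM (1 UMI) at D11. S100a4, its neighbour on chromosome 3, had 0 UMIs and 210 CPM in members and 0.307 and 61.7 CPM in cycling barcodes. Nav2 had 0 UMIs and 260 CPM (7.69 and 121 CPM in cycling barcodes), Emp3 0 UMIs and 255 CPM (29.5 and 115 CPM), and Ly6d 0 UMIs and 368 CPM (22.8 and 79.2 CPM). Vim, Ahnak and Lmna, of the cytoskeleton and the nuclear lamina, were chosen after their values were seen and had 1351, 869 and 260 CPM at D14 against 406, 227 and 32.5 CPM at D11, with Ahnak at 440 against 109 CPM in cycling barcodes. Neutrophil barcodes were also higher at D14, with Vim, Ahnak and Lmna at 1460, 459 and 25.3 CPM against 874, 190 and 6.03 CPM at D11.

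S100a6 was not even across the D14 members. It was found in 114 of the 185, with a median of 176 CPM per barcode and an upper quartile of 2616 CPM, and the 18 barcodes that had most of it held 64.6% of its UMIs. S100a6 is also a neutrophil transcript and was found in 90.2% of D14 neutrophil barcodes. Its ratio to S100a8 was 3.75 in members and 0.0849 in those barcodes. Without the 6 members rich in neutrophil transcripts S100a6 was at 2771 CPM. Its level moved with depth, at 897, 2261 and 3738 CPM in 3 sets of 62, 62 and 61 D14 members from shallow to deep. In mature B barcodes S100a6 was at 1107 CPM in the same library, where 4 of 39 barcodes held 91.8% of its UMIs, and at 68.0 CPM in the naive library.

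The choosing genes are given as a description, since the rule sets their level in part in both kinds of barcode. Dntt had 390 CPM (24 UMIs) at D11 and 54.9 CPM at D14, and 351 and 104 CPM in cycling barcodes, and it also moved with depth, at 150, 44.0 and 38.9 CPM in the 3 sets of D14 members from shallow to deep. Vpreb1 had 714 and 816 CPM in members and 1042 and 792 CPM in cycling barcodes, and Igll1 276 and 283 CPM in members and 354 and 277 CPM in cycling barcodes. The mitosis genes had a median of -2.42, all 11 with 50 CPM in either group being lower at D14. None of the listed ones reached 50 CPM at D14, where Ccnb2 was highest at 29.5 CPM, so that the filter largely set this count. Cdc20 had 195 CPM (12 UMIs) at D11 and 8.56 CPM at D14. In cycling barcodes Cdc20 was at 51.3 and 60.8 CPM. With Dntt left out of the rule, however, the median of the mitosis genes was 1.13 and the log2 ratio of Cdc20 was 3.26, so that their direction was not settled. After thinning to 1000 UMIs the median of the mitosis genes was 2.70, the same value as that of the class II genes. Single UMIs and the 1 CPM added set this value, so that it tells nothing of direction. Others in the leading 15 that were lower rested on few UMIs at D11, such as the myeloid genes Il1b, Csf3r and Tyrobp with 20, 13 and 20 UMIs (with at least 5 choosing UMIs the log2 ratios of Il1b and Tyrobp turned to 3.23 and 4.19), and Fam189a1 and Ankrd55 with 19 and 8 UMIs. None of 8 heat shock genes and 1 of 21 biosynthesis genes were past 2-fold.

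**Figure D4:**
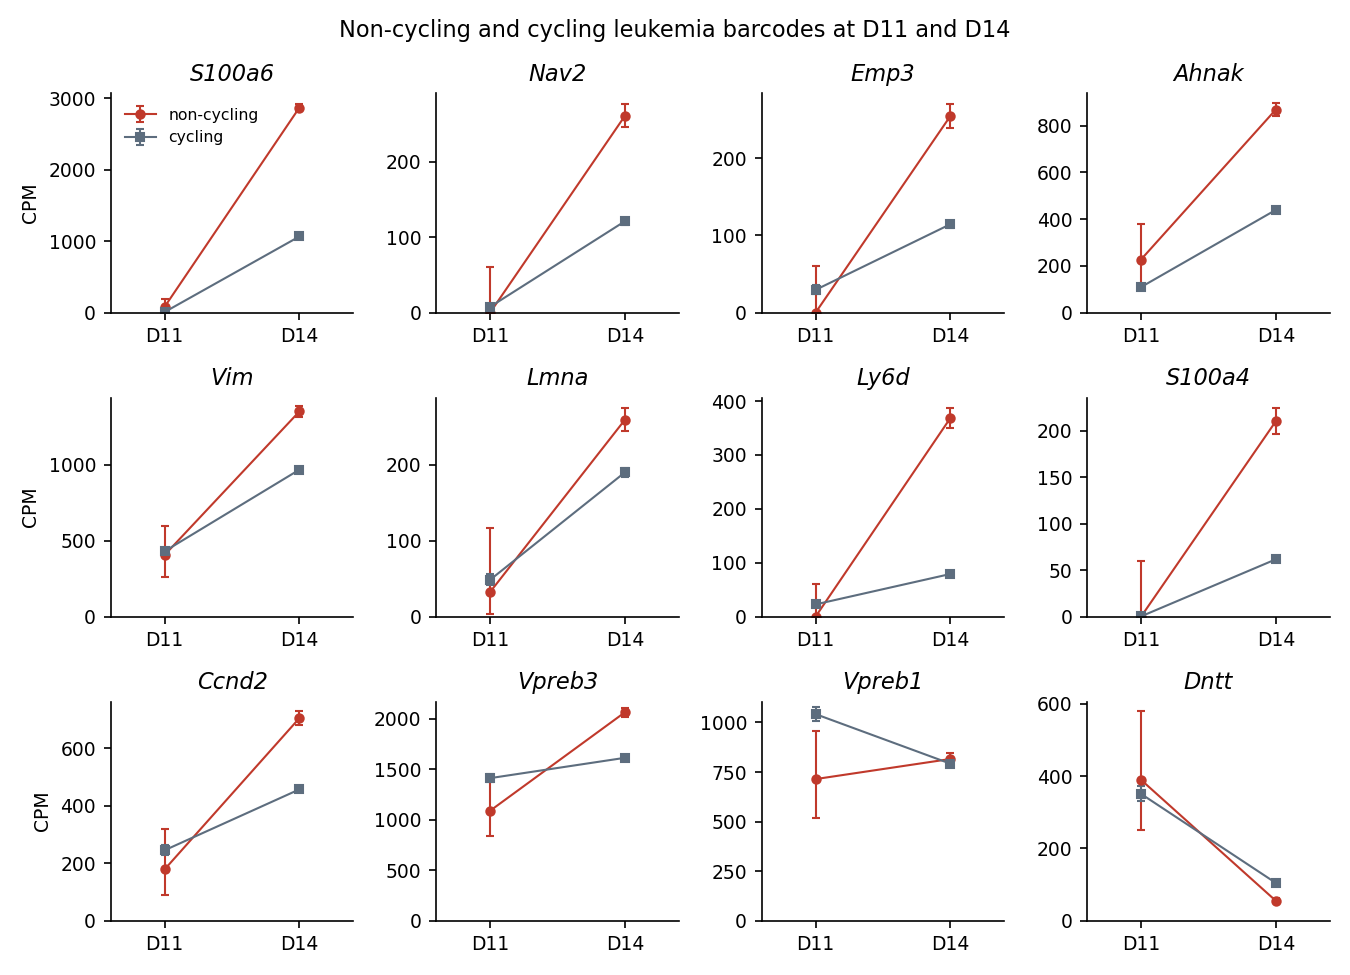
Level in CPM at D11 and D14 of 12 genes in members (red circles) and in cycling leukemia barcodes (grey squares), with exact 95% Poisson intervals; lines join the libraries and each axis starts at 0. S100a6, Nav2, Emp3, Ahnak, Vim, Lmna, Ly6d and S100a4 are higher at D14 in both kinds of barcode, Dntt is lower in both, and Vpreb1 differs little in members.

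Ratios to naive mature B were uneven by chromosome. In D14 members the median log2 ratio of the genes of a chromosome ran from -0.33 (chromosome 16) to 0.86 (chromosome X), with a median of 0.13 over all 4495 genes. Chromosomes 3, 5, 9, 10, 14, 15 and X had medians of 0.50 to 0.86, while each of the other 13 lay between -0.33 and 0.09, so that no chromosome fell between these sets. The same 7 were the highest at D11, with medians of 0.46 to 0.86, and in cycling barcodes of D14, where they were 0.54 to 0.84. Against mature B barcodes of the D14 library, the medians of the 7 were 0.50 to 0.84 and those of the other 13 were -0.28 to 0.15. Host mature B cells at D11 showed no such spread against the naive ones, with medians from -0.19 to -0.07 over the 20 chromosomes. These comparisons share members or the naive reference and are not independent of each other. Between D14 and D11 members the medians ran from -0.27 to 0.25. The choosing genes Vpreb1 and Igll1 lie on chromosome 16, the lowest in D14 members against naive mature B, and Cdkn2a on chromosome 4, whose median was 0.04. Xist, the transcript of the silent X chromosome in female cells, had 811 CPM in naive mature B, 779 CPM at D11 and 1508 CPM at D14, and the Y-linked Ddx3y, Eif2s3y, Kdm5d and Uty held 1 UMI among all members, of Kdm5d. This spread by chromosome was examined as a description and its cause was not tested.

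**Figure D5:**
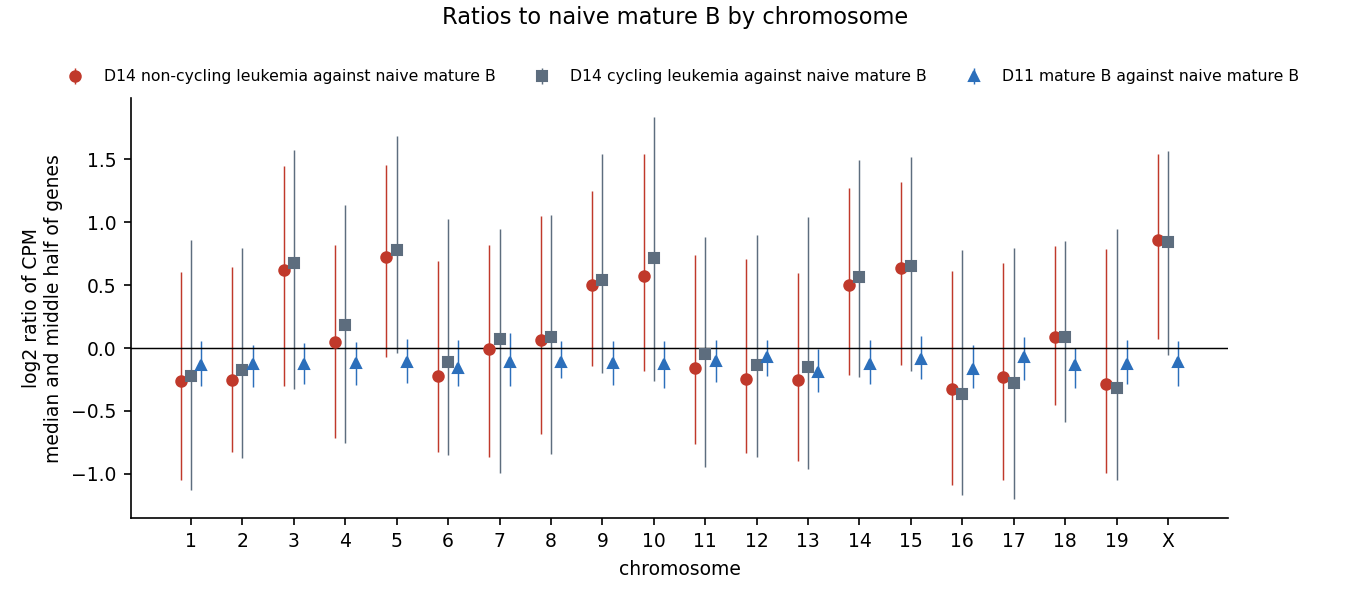
Median log2 ratio of CPM (1 CPM added) over the genes of each chromosome with at least 50 CPM in either group, with bars from the lower to the upper quartile of the genes, for D14 members (red circles), D14 cycling leukemia barcodes (grey squares) and D11 mature B barcodes (blue triangles), each against naive mature B. Red and grey points of chromosomes 3, 5, 9, 10, 14, 15 and X lie at 0.50 or higher, those of the others at 0.19 or lower, and all blue points lie between -0.19 and -0.07.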

How the data were processed

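Gene count matrices for 3 PB libraries, 1 for each condition, were analysed as the authors deposited them. Values are raw UMI counts per gene and barcode. The submitters' processing notes name Cell Ranger 7.1.0 and mm10, whereas the matrix headers name Cell Ranger 5.0.1. Cell-type labels were not used here, and doublets were left in except in an alternative.

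Barcodes were chosen by the rule of the report, counts were summed over each group and scaled to CPM, and genes with at least 50 CPM in either group were compared on the log2 scale with 1 CPM added; past 2-fold counted as called. Fold ranges are exact conditional binomial, sums exact Poisson, and shares Clopper-Pearson 95% intervals. No test was made, having 1 library for each condition. List medians cover genes with at least 5 CPM. Named genes were the 15 highest and lowest by log2 ratio with at least 100 CPM in either group, in the same direction at D11 and D14 for the comparisons with naive mature B, besides list members; choosing genes, hemoglobin genes and shared symbols stayed out of the ranking. Members and lists were chosen with earlier results of these data known. Analyses used Python 3.11.15, numpy 2.4.6, scipy 1.17.1, pandas 2.3.3, scanpy 1.11.5 (Scrublet) and edgeR 4.0.16 (TMM factors), with GENCODE vM21 for positions (32235 of 32285 identifiers matched) and RefSeq for promoters. The ratios and their intervals were tested on simulated data.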

Additional observations from a re-analysis of the deposited data

How the results depend on the processing

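No paired analysis was possible because each condition has 1 library. Of the counts and shares, 202 values under an alternative stayed near the value given and 52 moved, of the list medians 1888 stayed, 276 moved and 21 changed sign, and of the named genes 1712, 196 and 9. The D14 share of members was 4.92% with at least 2 UMIs of the choosing genes, 2.83% with 0 UMIs of Mki67 plus Top2a, 5.24% with filters of 500 genes and 5% mitochondrial UMIs, 2.29% over all deposited barcodes, 3.19% without Vpreb1 in the rule and 5.41% over barcodes under 10% hemoglobin. In alternatives chosen after seeing the data it was 3.47% without barcodes past the mature B thresholds and 3.44% over members with at least 10000 UMIs (0.0438% at D11), and the non-cycling share was 2.25% at D11 at that depth and 34.9% at D14 after thinning. The D14 against D11 counts of higher and lower genes were 1087 and 1114 with 0 UMIs of Mki67 plus Top2a, 1046 and 975 without Vpreb1 in the rule, 1414 and 1776 after thinning to 1000 UMIs, 1461 and 1137 at 20 CPM, 94 and 101 at 200 CPM and 211 and 119 at 4-fold; higher genes were 1049 without the highest Scrublet scores, and lower genes 321 with at least 2 choosing UMIs, 875 without Dntt and 859 as a mean over barcodes. For D11 against naive mature B they were 2220 and 1863 at 20 CPM, 424 and 361 at 200 CPM and 588 and 510 at 4-fold, with 2172 higher after thinning; for D14 against naive mature B 1811 higher at 20 CPM, 337 and 322 at 200 CPM and 387 and 288 at 4-fold; for D14 members against cycling barcodes 124 and 248 after thinning, 81 and 229 at 20 CPM, 12 and 25 at 200 CPM and 9 and 58 at 4-fold. The median of the neutrophil list against naive mature B at D11 turned to -2.66 (at least 5 choosing UMIs), -1.82 (0 UMIs of Mki67 plus Top2a), -0.55 (Scrublet), -2.96 (without Vpreb1), -1.64 (mature B of the same library) and -2.08 (without neutrophil-rich barcodes), and at D14 to -0.53 without them. The class II median of D14 against D11 turned to 2.08 (0 UMIs of Mki67 plus Top2a), 1.89 (Scrublet), 2.70 (thinned) and 1.76 (without barcodes past the mature B thresholds), that of mitosis genes to 1.13 (without Dntt) and 2.70 (thinned), that of erythroid genes to -3.43 (at least 2 choosing UMIs) and -0.027 (CPM without ribosomal, mitochondrial and hemoglobin genes), and that of T cell genes to 0.63 (without Vpreb1). The FGFR1, STAT5 and RAS median at D11 turned to -0.20 (without Vpreb1) and -0.12 (thinned). Against mature B of the D14 library the D14 medians of mitosis, monocyte and erythroid genes were -0.23, 0.31 and -1.17. Among named genes of D14 against D11, Il1b turned to 3.23 with at least 5 choosing UMIs and 2.60 without Vpreb1, Agbl1 to 4.45 with at least 5 and 4.41 without Rag1, Tyrobp to 4.19 with at least 5, Cdc20 and Ube2c to 3.26 and 3.33 without Dntt, and Cenpa to 5.81 after thinning, and Cdc20 at D11 against naive mature B to -0.88 without Dntt. The thinned medians of class II and mitosis genes, both 2.70, were set by single UMIs and the 1 CPM added, and tell nothing of direction. The causes were not tested. Comparisons with D11 were not run at 10000 UMIs, where 2 D11 members were left. Depth limits D11: 1 UMI there is 16.2 CPM.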

Other observations

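The variable segment Iglv1 of the lambda locus made up all 14 Iglv UMIs of the D14 members, and these lay in 7 barcodes. In naive mature B barcodes Iglv1 took 23 of 45 Iglv UMIs (51.1%), and in D14 cycling barcodes 7 of 9, with 2 from Iglv3. Among genes measured in naive mature B, Cd86 and Slc41a2, at 130 and 51.5 CPM there, had 0 UMIs in all 198 members, and 8 and 6 UMIs in D14 cycling barcodes. These genes were chosen after their values were seen.

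The D14 members, divided into 3 sets by depth, also differed in transcripts other than S100a6. Dntt was at 150, 44.0 and 38.9 CPM from the shallow to the deep set, Igkc at 897, 1592 and 2035 CPM, and Cdkn2a at 585, 669 and 921 CPM, while Vpreb1 was at 825, 946 and 730 CPM. Hemoglobin took 4.19%, 1.02% and 0.429% of UMIs in the same order.

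S100a4 was found in 43 of the 185 D14 members (23.2%), and 18 barcodes held 93.4% of its UMIs. Ly6d was found in 88 members, Nav2 in 102, Lmna in 106, Emp3 in 109 and Vim in 172.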
